A study of Mus musculus with 11 samples.

Results

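Respiratory complex I is the entry point of the mitochondrial electron transport chain, and the genes described here are its nuclear-encoded subunits. They were taken from the deposited count tables by symbol, as every gene named Nduf followed by a, b, c, s or v and a number, leaving out symbols ending in -ps. The rule found 40 of 54532 genes in the pancreas table and 37 of 46078 in the adipose table, of which 39 and 36 are described. These 36 protein-coding genes are the same in both, and the 3 further pancreas rows are the processed pseudogenes Ndufa11b, Ndufb4c and Ndufs6b, none of which passed the filter on low counts. The naming rule itself uses no measured value.

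The study asked how gene expression in pancreas and fat is altered in obesity-related alcohol-induced acute pancreatitis (OA-AP). Bulk RNA was sequenced in 5 pancreas libraries (2 control, 3 OA-AP) and 6 libraries of epididymal fat (3 control, 3 OA-AP), all from wild-type male animals labelled as C57BL/6 (C57BL/6J in the study's methods) and as 16 weeks old. From an age of 4 to 5 weeks, control mice ate normal chow and OA-AP mice a high-fat diet, for 12 weeks. OA-AP mice then received repeated intraperitoneal ethanol (2 g/kg, 1 h apart) and controls the same volume of saline, and tissue was taken 12 h after the first injection. Diet and ethanol therefore differ together between the groups and cannot be told apart, and no fat-fed mice without ethanol or lean mice with ethanol were analysed here. Total counts per library ran from 14188832 to 17238919 in the pancreas and from 20825177 to 27928097 in adipose tissue.

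Complex I takes electrons from NADH and passes them along a flavin and a chain of iron-sulfur clusters to ubiquinone, and it couples this to pumping protons out of the mitochondrial matrix. It has an L shape, with a peripheral arm in the matrix that carries out the electron transfer and a membrane arm that holds the proton pumps. A small set of core subunits does the chemistry, part of it encoded in mitochondrial DNA, and the many accessory subunits stabilise and help assemble the complex. Pancreatic acinar cells rely on mitochondrial ATP for enzyme synthesis and secretion and for calcium clearance.

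By role, the 36 genes comprise 6 nuclear core subunits, 9 accessory subunits of the peripheral arm, 19 accessory subunits of the membrane arm, and Ndufa4 with its paralog Ndufa4l2, which are set apart because Ndufa4 is now regarded as a subunit of complex IV. They lie on 15 chromosomes, 2 of them on X. Of the 36 genes, 15 share exon bases with another gene, 2 of them over more than 20% of their exon length (Ndufa13 with Tssk6, Ndufb6 with Smim27).

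Promoters of complex I genes are known for sites of the nuclear respiratory factor NRF1, so the stretch before the transcription start was searched in RefSeq promoters (GRCm38.p6, 250 bases before to 50 after the start). Of the 36 genes 32 had such a promoter. The NRF1 motif, on either strand, was in 7 of the 32 (21.9%), against 5.19% of the promoters of 27025 genes. The 4 sequences below cover the 80 bases before the start of members with this motif within that stretch, chosen after the matches were seen, on the gene's strand (Ndufa5, with such a match before 1 of its 2 RefSeq starts, is not shown), with the NRF1 matches and one ERR match in capitals. They are chr2:36049339-36049418 (minus strand), chr17:56717682-56717761 (plus), chr16:37654369-37654448 (minus) and chr13:73328483-73328562 (minus). Each start is that of RefSeq and not that of the gene in the count table. By the gene positions deposited with the counts, the Ndufb4 stretch and most of the Ndufa8 and Ndufs6 stretches lie inside the gene.
Ndufa8: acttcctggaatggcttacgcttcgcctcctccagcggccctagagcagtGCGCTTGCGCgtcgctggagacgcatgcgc
Ndufa11: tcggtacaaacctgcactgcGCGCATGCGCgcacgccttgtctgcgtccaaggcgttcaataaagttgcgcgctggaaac
Ndufb4: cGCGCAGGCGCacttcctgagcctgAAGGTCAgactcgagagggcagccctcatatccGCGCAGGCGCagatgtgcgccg
Ndufs6: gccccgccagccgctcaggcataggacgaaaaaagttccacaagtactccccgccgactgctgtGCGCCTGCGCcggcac
Ndufb4 holds 2 NRF1 matches in this stretch and, between them, the ERR motif AAGGTCA, the letters bound by estrogen-related receptors.

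Another 3 motifs were searched on both strands. The ETS motif CCGGAAG was in 4 of 32 members (12.5%, against 9.93%) and the ERR motif in 3 (9.38%, against 5.38%). The YY1 motif AAGATGG was in 7 (21.9%, against 7.28%), namely Ndufa3, Ndufa9, Ndufb8, Ndufc1, Ndufs4, Ndufs6 and Ndufs7, and in each it was on the gene's own strand, from 23 to 45 bases after the start. A match is a run of letters and not a shown binding site.

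The tissues matched their labels. The 14 acinar markers summed to between 330117 and 860670 CPM (counts scaled to library size by TMM, the trimmed mean of M-values) in the pancreas libraries, and the 6 adipocyte markers to between 25620 and 29430 CPM in adipose tissue. In the pancreas libraries, between 2 and 5 of the 6 adipocyte markers were at 0. One adipose library stood apart, because 1.11% of the counts of control replicate 2 came from acinar secretory genes, against at most 0.00204% in the other 5.

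In the pancreas, what a complex I value means depends on the scale, so the scale comes first. Acinar secretory genes (digestive enzymes and their companions, 49 of 50 listed found in the table) took 81.3% and 82.8% of all control counts, against 64.8%, 67.4% and 66.2% of those in OA-AP. Every OA-AP library was below both controls, and the difference of 15.9 percentage points had p = 0.1 in an exact two-sided permutation test of the size of the difference in means, the smallest p that 2 against 3 samples allow, and p = 0.2 when the smaller tail is doubled. All genes outside the list together held 18.7% and 17.2% of the counts in controls and 35.2%, 32.6% and 33.8% in OA-AP.

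Complex I genes held a smaller share of all counts and a much smaller share of what lay outside the acinar list in OA-AP. The 36 genes together held 0.0595% and 0.0589% of all counts in the controls and 0.0536%, 0.0503% and 0.0444% in OA-AP, or 0.0592% ± 0.000443 (SD, n = 2) against 0.0494% ± 0.0047 (SD, n = 3). Of the counts outside the acinar list, a scale chosen after the data were seen, they held 0.318% and 0.343% in the controls and 0.152%, 0.154% and 0.131% in OA-AP. The groups did not overlap on either scale, and the OA-AP mean was 0.836 times the control mean on the first and 0.442 times on the second. RNA per tissue was not measured, and in bulk tissue fewer cells of a type and less RNA per cell cannot be told apart.

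**Figure D1:**
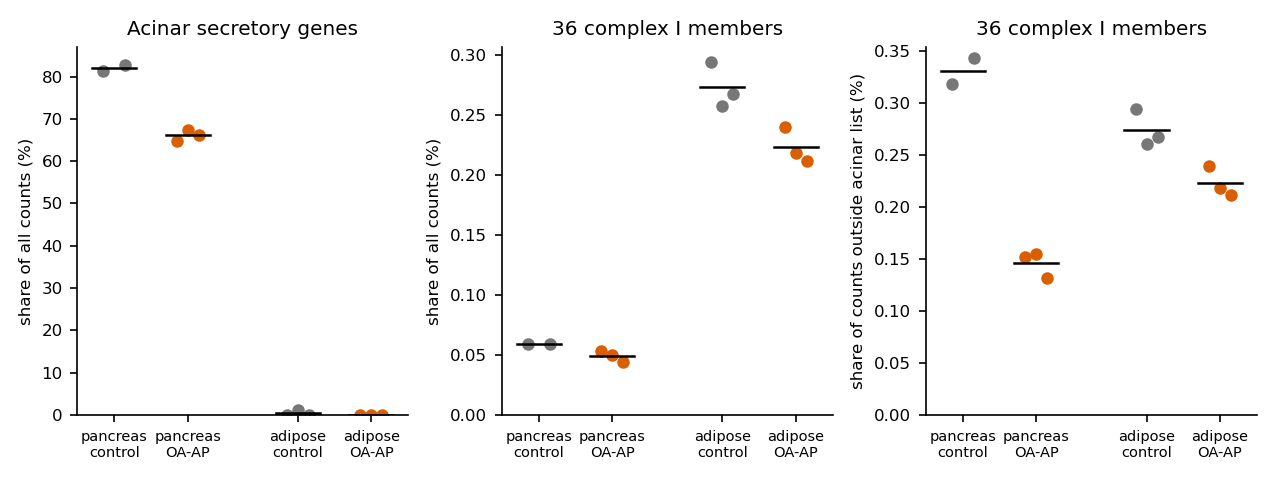
Share of counts in each library (points, in percent) for the acinar secretory genes over all counts, for the 36 complex I genes over all counts, and for the 36 genes over counts outside the acinar list, with group means as lines (n = 2, 3, 3 and 3). The acinar share was 82.1% in control and 66.1% in OA-AP pancreas on average, and the complex I groups of the pancreas lie much farther apart on the third scale than on the second.

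With TMM, which sets the typical gene to no change, 32 of the 35 members tested in the pancreas were DEGs that fell in OA-AP and none rose. To count as a DEG, a gene needed a fold change of at least 1.5 and, by edgeR's quasi-likelihood test adjusted over all tested genes (Benjamini-Hochberg), an adjusted p below 0.05. Of all 12884 genes tested, 13.5% were lower and 16.2% higher by this rule. The median log2 fold change of the 35 was −0.97 (range −1.80 to −0.44), beside 0.039 for all genes tested, and 16 were at or below −1. In all 35 every OA-AP library lay below both controls, an order found in 29.3% of all genes tested.

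With library totals as the only scaling, 3 members (Ndufs8, Ndufv3 and Ndufa13) were lower and none higher, and 3.93% of all genes were lower and 45.3% higher. Every OA-AP library then lay below both controls in 18 of the 35 members, beside 8.69% of all genes, and the groups overlapped in the other 17. The member median was then −0.26 and that of all genes 0.75, a shift of all values upwards. Rescaling moves all genes by nearly the same amount, so the distance between these medians (−1.01 with TMM) was bound to stay nearly the same. It is therefore no check of the falls, and each fall given below is relative to the typical gene. Among the markers of other cells, summed neutrophil markers were 0.943 and 1.79 CPM in the controls and 12.0, 3.03 and 90.9 CPM in OA-AP, with S100a9 the most abundant. None of the 4 tested passed by edgeR (0 also at an unadjusted p under 0.05) but 3 were higher by DESeq2. Summed islet markers were 930 and 1154 CPM against 1556, 1274 and 1417 CPM, and 1 of 6 rose. Brown adipocyte markers summed to 0.257 and 0.0996 CPM (3 and 1 counts) against 1.84, 0.686 and 3.40 CPM, and the 1 tested rose (3.67). Of the OA-AP sums Dio2 alone made up 1.73, 0.629 and 3.13 CPM. Ucp1 was at 0 in both controls and in OA-AP replicates 1 and 2, so the sum is not a brown adipocyte signal. T cell markers, none of them tested, summed to 0.686 and 0.498 CPM against 0.105, 0 and 0.261 CPM. By edgeR, 1 of 5 ductal, 1 of 4 endothelial and 1 of 6 macrophage markers tested fell and none rose. At an unadjusted p under 0.05, 1 ductal and 2 macrophage markers were higher. DESeq2 called 1 macrophage marker higher and 1 lower, and 2 endothelial markers lower. With library totals none of these markers fell, and 1 ductal, 1 endothelial and 2 macrophage markers rose, beside 45.3% of all genes. Their part in the complex I values was not tested.

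**Figure D2:**
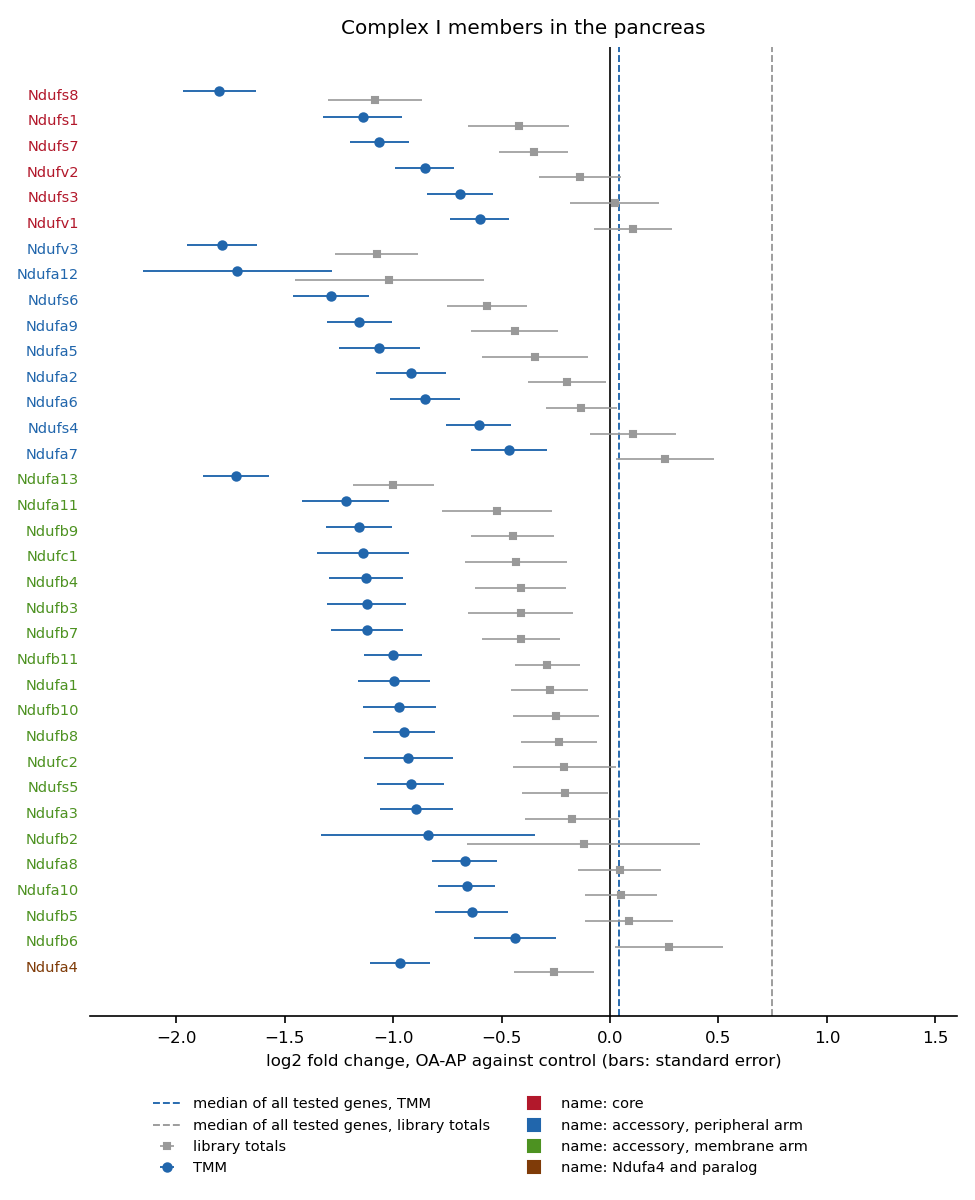
Log2 fold change of OA-AP against control pancreas (2 and 3 libraries) for the 35 tested members, with TMM (circles) and with library totals (squares), bars giving the standard error, dashed lines the median of all tested genes on each scale and name colours the role. The TMM values lie lower by about the distance between the dashed lines.

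All 6 nuclear core subunits described fell in the pancreas (median −0.96). Ndufs8, which carries iron-sulfur clusters close to the ubiquinone site (ENSMUSG00000059734, chr19:3908870-3912717, minus strand), was at 17.1 and 19.5 CPM in controls and at 5.30, 5.60 and 4.86 CPM in OA-AP. All OA-AP libraries sat close together and far below the controls, a log2 fold change of −1.80 (SE 0.17, edgeR adjusted p = 0.000289), which with library totals was −1.08 (adjusted p = 0.00187). Ndufs7, whose cluster is the last before ubiquinone, had 36.3 and 41.1 CPM against 18.1, 17.6 and 19.8 CPM, again without overlap. Its log2 fold change was −1.06 (SE 0.14, edgeR adjusted p = 0.00108). Ndufs3, a structural core subunit at the base of the peripheral arm, fell by 0.69 on the log2 scale (SE 0.15, edgeR adjusted p = 0.0111), from 24.0 and 22.6 CPM to 14.6, 16.1 and 12.6 CPM. Neither Ndufs7 (−0.35) nor Ndufs3 (0.021) passed the test with library totals.

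The 3 core subunits at the tip of the arm, where NADH is oxidised, fell too. Ndufs1, the large iron-sulfur subunit, had 17.8 and 18.3 CPM in controls and 8.60, 9.31 and 6.69 CPM in OA-AP, a log2 fold change of −1.14 (SE 0.18, edgeR adjusted p = 0.00271). Ndufv2, an iron-sulfur subunit beside the flavin, had 27.3 and 27.7 CPM against 16.2, 15.4 and 14.0 CPM (−0.85, SE 0.14, edgeR adjusted p = 0.00275). Ndufv1, which binds NADH and the flavin, had 36.3 and 33.1 CPM against 21.7, 24.7 and 22.1 CPM (−0.60, SE 0.13, edgeR adjusted p = 0.0116). In all 3 genes the groups were separate, with the narrowest gap in Ndufv1. Using library totals, none of the 3 passed the test, with Ndufs1 at −0.42, Ndufv2 at −0.14 and Ndufv1 at 0.10.

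Among the 9 accessory subunits of the peripheral arm 8 fell (median of the 9, −1.06). Ndufv3, an accessory subunit near the NADH site, had 21.1 and 25.2 CPM in controls and 6.76, 6.11 and 7.16 CPM in OA-AP. The OA-AP libraries were tightly grouped below the controls (−1.79, SE 0.16, edgeR adjusted p = 0.000272), and with library totals the change was −1.08 (edgeR adjusted p = 0.000977). Ndufs6, a zinc-binding subunit, fell by 1.29 (SE 0.17) and Ndufa9, which sits beside the ubiquinone site, by 1.16 (SE 0.15) on the log2 scale. Ndufa12 had a log2 fold change of −1.72 with a wide error (SE 0.44, edgeR adjusted p = 0.0191), on 12 to 47 counts per library. Ndufa7 did not pass the test (−0.47, edgeR adjusted p = 0.0722).

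Of the 19 accessory subunits of the membrane arm 17 fell (median of the 19, −0.97). Ndufa13, also known as GRIM-19 and needed for assembly of the complex, had the smallest p of all members, with 36.0 and 44.6 CPM in controls and 13.2, 12.0 and 11.3 CPM in OA-AP. The groups did not overlap, and the change was −1.72 (SE 0.15, edgeR adjusted p = 0.000255), or −0.9999 with library totals (edgeR adjusted p = 0.00125). Its partner in the annotation, Tssk6, which shares 30.0% of its exon bases on the other strand, had at most 8 counts in any pancreas library. The remaining 16 ranged from −1.22 (Ndufa11, SE 0.20) to −0.64 (Ndufb5, SE 0.17). Ndufb2, on 11 to 30 counts per library, and Ndufb6 did not pass the test (−0.84, SE 0.49, and −0.44, SE 0.19, with edgeR adjusted p = 0.221 and 0.109).

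Ndufa4 had 32.6 and 31.8 CPM in controls and 15.9, 18.1 and 15.3 CPM in OA-AP, close to the median of the members (−0.97, SE 0.14, edgeR adjusted p = 0.00173). Its paralog Ndufa4l2, known as a gene induced under hypoxia, had 8 and 6 counts in controls and 3, 10 and 10 counts in OA-AP and was too low to test. The count of members that fell in the pancreas rests in part on 1 library, since without control replicate 2 it was 17, with the lone remaining control assumed to vary like the other group.

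**Figure D3:**
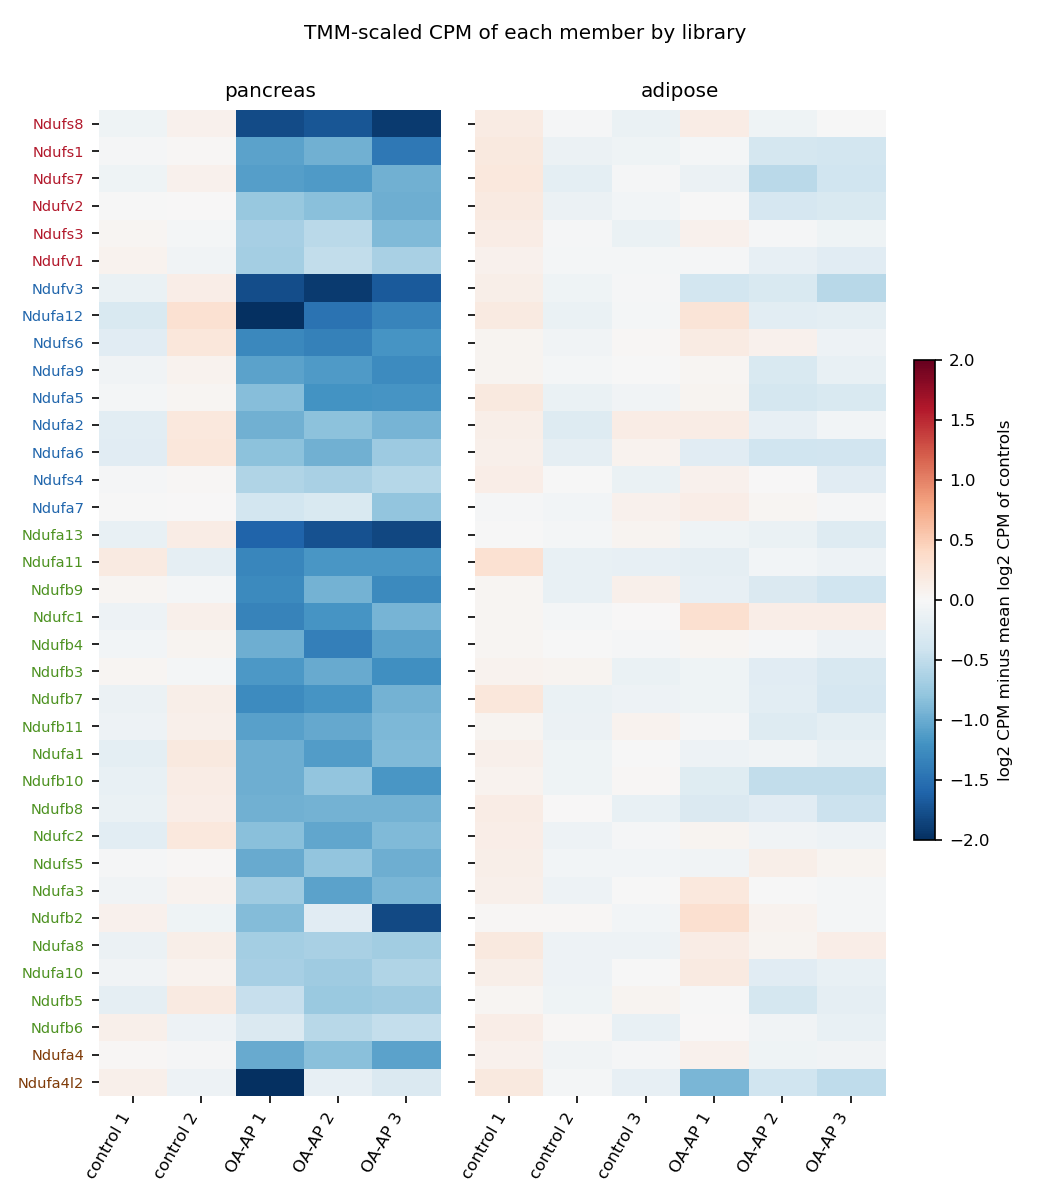
Log2 CPM (TMM-scaled) of each member in each library minus the mean over the control libraries of the tissue, for 5 pancreas and 6 adipose libraries, with colours saturating at −2 and 2 and names coloured by role as core (red), peripheral arm (blue), membrane arm (green) and Ndufa4 pair (brown). The 3 OA-AP pancreas libraries are blue for nearly all members, while the adipose libraries are pale. Ndufa4l2 in the pancreas rests on 3 to 10 counts.

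In adipose tissue few members passed the test with TMM. Of the 36, all tested, 1 was a DEG that fell and none rose, beside 12.7% of the 15839 genes tested that were lower and 12.4% that were higher. The median log2 fold change was −0.12 (range −0.60 to 0.20), beside −0.0041 for all genes, and 7 members had an unadjusted p under 0.05. Every OA-AP library lay below every control in 7 members and above in 1 (Ndufc1), orders found in 25.3% and 27.5% of all genes. With library totals, where the median of all genes was −0.16 and that of the members −0.27, every OA-AP library lay below every control in 22 members, beside 35.9% of all genes, and 19 had an unadjusted p under 0.05. The share of the 36 genes in all counts was 0.273% ± 0.0189 (SD, n = 3) in controls and 0.223% ± 0.0147 (SD, n = 3) in OA-AP, without overlap.

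The one DEG was Ndufa4l2 (ENSMUSG00000040280, chr10:127514967-127517154, plus strand), with 14.7, 12.5 and 11.5 CPM in controls and 6.79, 9.70 and 9.02 CPM in OA-AP. All OA-AP libraries were below all controls, and the change was −0.60 (SE 0.17, edgeR adjusted p = 0.0319). Leaving out a library ended the call in 5 of 6 cases while the change stayed between −0.47 and −0.70. The edgeR adjusted p was 0.106, 0.0684 and 0.0543 without control replicates 1, 2 and 3 and 0.0647 and 0.0624 without OA-AP replicates 1 and 3, and the call held without OA-AP replicate 2 (−0.70, edgeR adjusted p = 0.0234). Control replicate 2 is the library with acinar RNA.

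Another 3 members passed the adjusted p but not the fold change, which makes 4 of 36 lower at that adjusted p alone, beside 16.9% of all genes. With library totals 17 of 36 were lower at that edgeR adjusted p, beside 25.4% of all genes, though 1 still passed the fold change. Ndufb10, a membrane arm subunit, had 89.0, 80.2 and 86.6 CPM in controls and 71.8, 60.8 and 60.6 CPM in OA-AP (−0.40, SE 0.10, edgeR adjusted p = 0.0181). Ndufv3 had 117, 101 and 106 CPM against 83.7, 87.4 and 73.5 CPM (−0.41, SE 0.10, edgeR adjusted p = 0.0202), and Ndufa6 had 66.0, 54.5 and 64.5 CPM against 52.7, 46.6 and 47.0 CPM (−0.34, SE 0.10, edgeR adjusted p = 0.0394). In each the groups were separate but close.

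None of these 6 core subunits passed the test in adipose tissue by edgeR (1 had an unadjusted p under 0.05), and their changes ran from −0.35 to 0.017. With library totals 4 had an unadjusted p under 0.05 and again none was a DEG. Ndufs7, Ndufv1, Ndufs1 and Ndufv2 were then lower at an edgeR adjusted p under 0.05 but not at the fold threshold. Ndufs8, with the largest fall in the pancreas, had 40.5, 35.5 and 33.2 CPM in adipose controls and 40.2, 34.2 and 36.1 CPM in OA-AP, fully overlapping (0.017, edgeR adjusted p = 0.915). Ndufs7 had 88.5, 67.1 and 75.2 CPM against 70.7, 52.5 and 57.8 CPM, and the groups overlapped. Ndufs1 had 137, 110 and 112 CPM against 116, 93.4 and 91.9 CPM, and Ndufs3 had 98.8, 87.9 and 80.9 CPM against 94.6, 87.9 and 83.4 CPM. Ndufv1 had 119, 109 and 110 CPM against 110, 100 and 95.9 CPM, and Ndufv2 had 108, 88.7 and 91.9 CPM against 95.1, 75.8 and 77.8 CPM. In each of these 4 at least one OA-AP library lay within the control range. Ndufa4 overlapped as well, with 206, 185 and 191 CPM against 206, 183 and 185 CPM.

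Markers of other cells moved with the groups in fat. Summed neutrophil markers were 9.27 to 15.1 CPM in controls and 136 to 164 CPM in OA-AP, and summed fibroblast markers, with Dcn the most abundant, 3181 to 4086 CPM against 1893 to 2375 CPM. Of the neutrophil markers 4 of 5 tested rose and Elane fell (−1.41, edgeR adjusted p = 0.0418), and 4 of 5 fibroblast markers fell. All 4 B cell markers fell, their sum being 6.01, 38.2 and 11.6 CPM in controls and 1.44, 2.10 and 2.32 CPM in OA-AP. Of 4 T cell markers tested 2 fell, with summed levels of 3.67 to 8.68 CPM against 1.80 to 3.07 CPM, and of 6 macrophage markers 3 rose and 1 (Csf1r) fell, with 672 to 827 CPM against 866 to 1224 CPM. In each of these 5 lists the summed levels of the groups did not overlap with TMM. Nor did they on that scale in 3 further lists, where OA-AP was higher. With library totals the groups overlapped in the macrophage, adipocyte and endothelial sums. The macrophage sums were then 710 to 873 in controls and 830 to 1162 in OA-AP. The 6 adipocyte markers summed to 25620 to 26113 CPM in controls and 28277 to 29430 CPM in OA-AP, with Fabp4 the most abundant, and of them Lep rose and Plin1 fell. The endothelial markers summed to 850 to 951 CPM against 959 to 1424 CPM with 0 of 4 called by edgeR or DESeq2 (2 at an unadjusted p under 0.05), and the brown adipocyte markers to 1.76 to 2.58 CPM against 2.92 to 4.73 CPM, where Dio2 rose (3.06, edgeR adjusted p = 0.00143). Cidea, the other of the 2 brown adipocyte markers tested, was at −0.71 (edgeR adjusted p = 0.0553) and was called lower with library totals. The ductal sums overlapped, with 1 of 5 markers tested higher. Their part in the complex I values was not tested.

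The change in the pancreas and that in adipose tissue were compared directly with the tissue by condition term over all 11 libraries, coded as adipose minus pancreas. Of 36 members tested, 28 differed at an edgeR adjusted p under 0.05, each with the higher value in adipose tissue, by 0.55 to 1.80 on the log2 scale. The adipose value of these 28 was below 0 in 22 and above 0 in 6. Of 17046 genes tested, 10.8% differed in this direction and 10.5% in the other. The smallest p-values belonged to Ndufs8 (1.80, SE 0.18, edgeR adjusted p = 9.49e-05), Ndufa13 (1.55, SE 0.16, edgeR adjusted p = 9.82e-05) and Ndufv3 (1.36, SE 0.18, edgeR adjusted p = 0.000339). In adipose tissue Ndufa13 had 77.3, 75.6 and 80.5 CPM in controls and 73.0, 71.3 and 65.3 CPM in OA-AP, a small gap beside the one in the pancreas.

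This comparison also depends on the scale, and library totals moved the median of all genes tested from −0.055 to −0.88. For the counts of members that follow, the share of all genes was not computed, so they have no background beside them. With library totals 4 members (Ndufs8, Ndufa13, Ndufv3 and Ndufc1) still had the higher value in adipose tissue and none differed the other way, and without pancreas control replicate 2 the count was 16. The member median minus that of all genes was 0.92 with TMM and 0.89 with library totals, a distance that rescaling was bound to leave nearly unchanged. The labels do not say whether the pancreas and adipose libraries came from the same mice. With a block for the replicate number, 15 members had the higher value in adipose tissue. Across the 35 members tested in both tissues, the log2 fold changes had a Pearson r of 0.19 (Spearman rho 0.22), a description over genes that share their libraries.

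**Figure D4:**
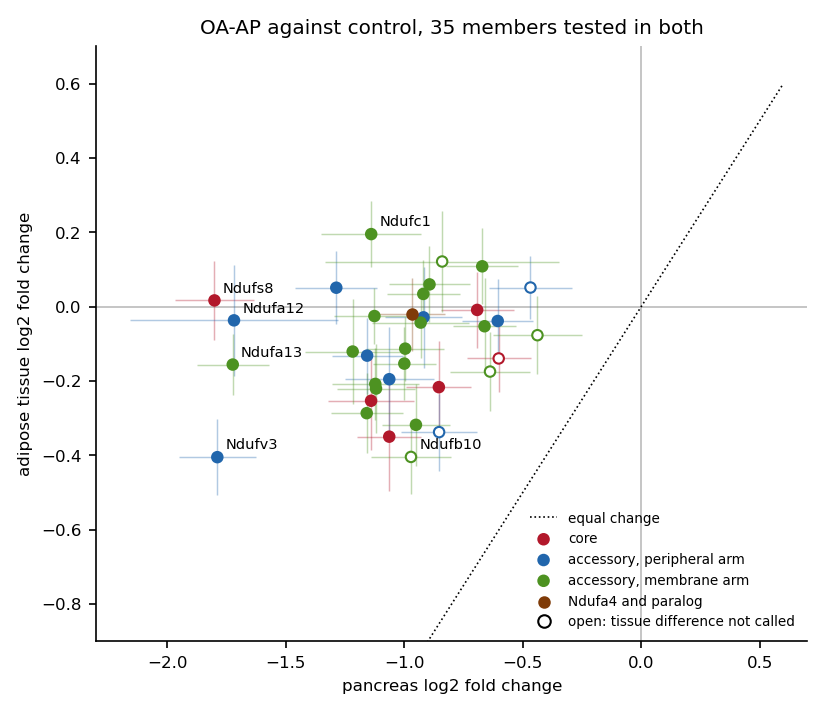
Log2 fold change of OA-AP against control in adipose tissue (vertical axis) against that in the pancreas (horizontal axis) for the 35 members tested in both, with TMM, bars giving the standard error and filled points the members whose tissue difference passed the test. Every member shown lies to the left of the dotted line of equal change, and the adipose values stay between −0.41 and 0.20.

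Levels also differed among the members. Per kilobase of the principal transcript and in TMM-scaled CPM, the control pancreas mean was highest for Ndufa6, at 84.2 and 114 in the 2 libraries, followed by Ndufa1 at 54.8 and 72.2, which did not overlap it. In control adipose tissue Ndufa4 was highest at 338, 302 and 313, followed by Ndufb9 at 231, 202 and 239. Ndufb2 was lowest in both, at 0.490 and 0.433 in the pancreas and at 2.06 to 2.17 in adipose tissue. The order depends on the length used. Per kilobase of the deposited gene length, a choice added after the data were seen, Ndufa1 was highest in the control pancreas (mean 63.5, with Ndufa6 at 32.5) and Ndufb9 in control adipose tissue (mean 153, with Ndufa4 at 141).

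Other parts of the respiratory system were read from lists of known genes. The 7 subunits encoded in mitochondrial DNA, which form the proton-pumping core of the membrane arm, were all negative in the pancreas with TMM. Of them 2 of 7 fell, beside 13.5% of all genes tested. These were mt-Nd2, by 0.98 (SE 0.16, edgeR adjusted p = 0.00263), and mt-Nd1, by 0.86 (SE 0.17, edgeR adjusted p = 0.00708) on the log2 scale. The values of mt-Nd4, mt-Nd5, mt-Nd6, mt-Nd4l and mt-Nd3 were −0.55, −0.51, −0.45, −0.19 and −0.057. With library totals none of the 7 passed, beside 3.93% of all genes lower and 45.3% higher. Their summed share of all counts was 0.326% ± 0.00985 (SD, n = 2) in controls and 0.333% ± 0.0192 (SD, n = 3) in OA-AP. Of the counts outside the acinar list it was 1.82% ± 0.166 (SD, n = 2) against 0.985% ± 0.0646 (SD, n = 3), or 0.541 times the control mean. In adipose tissue none of the 7 was a DEG by edgeR, beside 12.7% of all genes lower and 12.4% higher. Their median was 0.22 and mt-Nd4l was at −0.72 (edgeR adjusted p = 0.0612), although 2 had an unadjusted p under 0.05 and 1 was lower by DESeq2 or with library totals.

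The assembly factors, proteins that build complex I but do not stay in it, did not share the count of the subunits. Of 18 genes 16 were tested in the pancreas, none fell by edgeR and Foxred1 rose (0.82, SE 0.24, edgeR adjusted p = 0.0302), beside 13.5% of all genes lower and 16.2% higher. Their median was −0.40 on the TMM scale and 0.32 using library totals, where 3 were higher and none lower, beside 45.3% and 3.93% of all genes. At an unadjusted p under 0.05, 3 were lower, and DESeq2 called 1 lower. In adipose tissue Ndufaf4 alone of 17 tested rose (0.87, SE 0.11, edgeR adjusted p = 0.00173), beside 12.4% of all genes, and 3 of the 17 were higher at an unadjusted p under 0.05. A difference between the subunits and the assembly factors was not tested. Of the subunits outside the naming rule, Ndufb1-ps fell in the pancreas (−0.91, edgeR adjusted p = 0.00664), and Ndufab1, the mitochondrial acyl carrier protein, did not pass the test (−0.59, edgeR adjusted p = 0.182).

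Genes of the other complexes also fell in the pancreas with TMM, though not all of them. No gene of these lists was a DEG in adipose tissue by edgeR or DESeq2, beside 12.7% of all genes lower and 12.4% higher by edgeR. At an unadjusted p under 0.05 in adipose tissue there were 2 genes of complex II, 3 of the ATP synthase and 2 of the TCA cycle, and 1 ATP synthase gene was lower with library totals. In the pancreas 13.5% of all genes tested were lower with TMM. In complex II 2 of 4 genes were lower, with Sdhb at −0.995 (SE 0.123). In complex III 6 of 9 were lower, with Uqcr11 at −1.30 (SE 0.18), and in complex IV 8 of 10, with Cox7b at −1.77 (SE 0.16) and Cox7a2 at −1.30 (SE 0.13). The ATP synthase, which uses the proton gradient, had 9 of 15 lower, with Atp5g1 at −1.76 (SE 0.15). In the TCA cycle, which supplies the NADH, 3 of 13 were lower, led by Suclg2 at −1.41 (SE 0.14). The list medians were −0.64, −0.63, −0.88, −0.81 and −0.49, beside −0.97 for the complex I members, and with library totals the numbers of lower genes were 0, 1, 2, 4 and 1, those of higher genes 0, 0, 0, 0 and 3 (beside 3.93% and 45.3% of all genes), and the medians 0.075, 0.091, −0.17, −0.11 and 0.23.

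Known regulators of mitochondrial genes split in direction. Of 8 tested in the pancreas 3 rose and 1 fell, beside 16.2% and 13.5% of all genes. With library totals 5 rose and 1 fell there, beside 45.3% and 3.93% of all genes. Of 9 tested in adipose tissue 1 rose and 3 fell, beside 12.4% and 12.7% of all genes. Ppargc1a, a coactivator that drives mitochondrial biogenesis, fell in the pancreas (−2.87, SE 0.58, edgeR adjusted p = 0.00717) and in adipose tissue (−2.10, SE 0.18, edgeR adjusted p = 0.000557). Pprc1, a related coactivator, rose in both (1.26 and 1.49, with edgeR adjusted p = 0.00332 and 0.000746). Nrf1 and Yy1, whose motifs were among those searched above, rose in the pancreas (1.06 and 1.02, with edgeR adjusted p = 0.0144 and 0.00262), and in adipose tissue they were at 0.0017 and 0.16 and did not pass the test. Ppargc1b and Esrra fell in adipose tissue (−1.37 and −0.66, with edgeR adjusted p = 0.0492 and 0.0194).

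**Figure D5:**
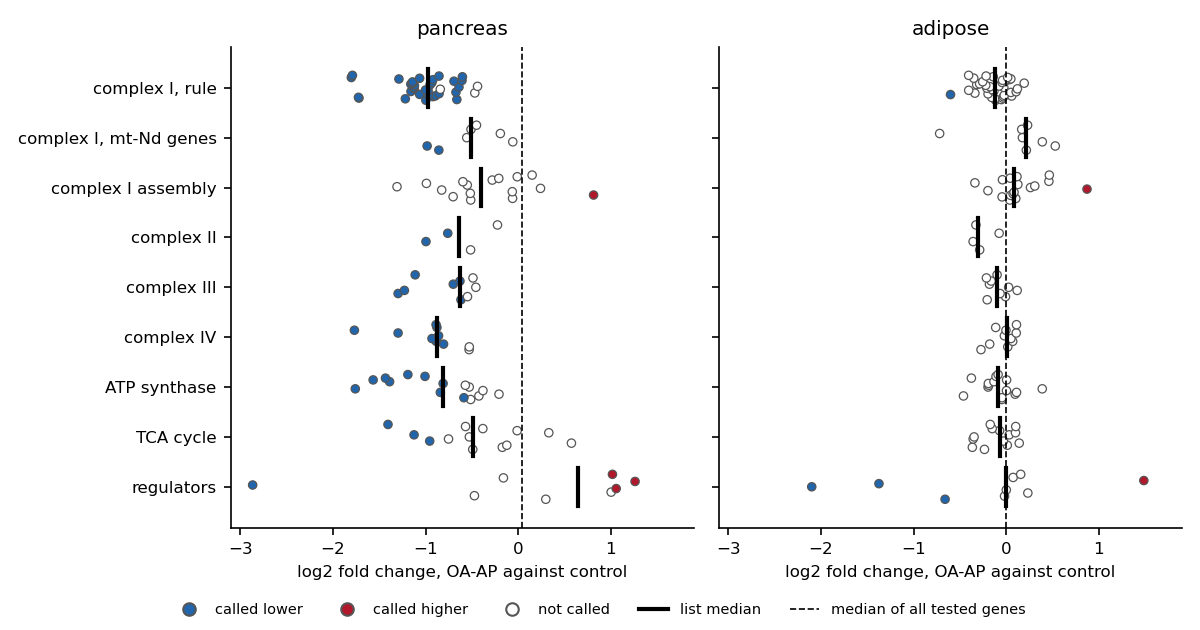
Log2 fold change of OA-AP against control (TMM) for each tested gene of the complex I rule, the other respiratory lists and the regulators, in the pancreas (2 and 3 libraries) and adipose tissue (3 and 3 libraries), with filled points for genes that passed both thresholds, thick bars for list medians and a dashed line for the median of all tested genes. The medians of the respiratory lists lie left of the dashed line in the pancreas, with complex I at −0.97 and single genes of the TCA cycle and assembly lists to its right, and in adipose tissue the medians lie nearer to it.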

How the data were processed

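The 11 libraries were grouped by their labels. The authors trimmed reads with Trim Galore (0.6.6), checked quality with fastp (0.20.1), mapped to GRCm38 using STAR and quantified per gene using featureCounts (2.0.1). They deposited raw whole-number counts per gene without normalization, so low genes carry large counting error. The library kit was NEBNext Ultra, and the strand setting of the counting is not given in the sources used here.

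From these counts, edgeR (4.0.16, R 4.3.3) was run for each tissue with filterByExpr, TMM scaling and the robust quasi-likelihood test, and over all libraries for the tissue by condition term. P-values were adjusted over all tested genes by the Benjamini-Hochberg method. DEGs had an adjusted p under 0.05 and, within a tissue, a fold change of 1.5 or more. Errors of log2 fold changes are the absolute log2 fold change over the square root of F. On simulated data with 200 genes changed 4-fold, edgeR recovered 185 in a pancreas-like set of 12521 genes, 192 in an adipose-like set of 15645 and 130 for the tissue term in 16680. Alternatives were DESeq2 (1.42.0), other scalings, filters and thresholds, leaving out each library and a replicate block. Of the genes that meet the naming rule, 1 is not reported here; it stayed in the fits over all genes but is in no count of members. The members and lists were chosen with earlier results of these data known. Named with values in every sample were the core subunits, the members with the smallest p, and Ndufa4 with Ndufa4l2. Exceptions to the main direction were named without values in every sample. So were at most 4 genes with the smallest p of the other lists, and all mt-Nd genes. The neighbour Tssk6 was chosen after values were seen. Replicates differed by more than counting noise (chi-square per degree of freedom of at least 6.91). Nothing says how the libraries relate to animals beyond their labels, so p-values measure the spread between these samples, and intervals of sequencing counts would cover counting error only.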

Additional observations from a re-analysis of the deposited data

Results flagged for a closer look

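The change in OA-AP differed between the tissues, by the tissue by condition term of edgeR's quasi-likelihood test (adjusted p under 0.05, all 11 libraries, TMM), for 28 members and 12 of 46 other genes tested. These 46 were mt-Nd genes, assembly factors, regulators, the leading genes of the other lists, single cell markers and Ndufab1. The 12 were 8 higher and 4 lower, beside 10.8% and 10.5% of all 17046 genes tested. The leading genes were chosen by their small p in these data, so the count of 12 says nothing about their lists. Values are log2 differences, adipose minus pancreas, so a positive value means a smaller fall or a larger rise in adipose tissue. The peripheral arm and core members were Ndufs8 (1.80), Ndufa12 (1.66), Ndufv3 (1.36), Ndufs6 (1.32), Ndufa9 (1.00), Ndufs1 (0.87), Ndufa2 (0.87), Ndufa5 (0.85), Ndufs7 (0.69), Ndufs3 (0.66), Ndufv2 (0.62) and Ndufs4 (0.55). The membrane arm members and Ndufa4 were Ndufa13 (1.55), Ndufc1 (1.31), Ndufa11 (1.08), Ndufb4 (1.08), Ndufs5 (0.93), Ndufa3 (0.93), Ndufa4 (0.93), Ndufb3 (0.90), Ndufb7 (0.88), Ndufc2 (0.86), Ndufa1 (0.86), Ndufb9 (0.85), Ndufb11 (0.82), Ndufa8 (0.76), Ndufb8 (0.61) and Ndufa10 (0.59).

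The other genes were Atp5g1 (2.13), Cox7b (1.74), the assembly factor Ndufaf5 (1.55), mt-Nd2 (1.49), Cox7a2 (1.38), Suclg2 (1.21), Uqcr11 (1.21) and Sdhb (0.62), and, with the more negative change in adipose tissue, the assembly factor Foxred1 (−0.79), Yy1 (−0.88), Esrra (−0.98) and Nrf1 (−1.08). With library totals in place of TMM, 4 of the 28 members kept their call in this direction. Of the other 8 genes with a positive value 3 kept it (Atp5g1, Cox7b and Cox7a2), and Sdhb turned to −0.24. All 4 with a negative value kept theirs. Library totals moved the median of all genes tested from −0.055 to −0.88, and Nrf1 from −1.08 to −1.91. Negative calls were thus bound to hold and positive ones to weaken, so calls kept on the negative side are no check. With the replicate block 5 of the 8 positive and 3 of the 4 negative kept their call. Those that lost it were mt-Nd2, Ndufaf5, Sdhb and Foxred1. The cause was not tested. Groups of 2 or 3 libraries are too small for a search for single outlying samples.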

How the results depend on the processing

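The 32 members lower in the pancreas stayed at 29 to 32 with DESeq2, its size factors, TMM without acinar genes and other filters, and the range over libraries left out was 17 to 32. With library totals the count was 3, and with a fold change of at least 2 it was 16. The single member lower in adipose tissue became 0 at a fold change of at least 2 and 4 with no fold threshold, and 0 to 1 with a library left out. The 28 members of the tissue difference became 4 with library totals, 26 to 31 under the other scalings, filters and DESeq2, and 16 to 29 with a library left out.

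Replicate numbers recur across groups, and same-numbered libraries had correlations of their deviations of 0.0015 and −0.041 in the pancreas and −0.0060, 0.056 and −0.16 in adipose tissue. Between the tissues, same-numbered pancreas and adipose libraries had −0.051 and −0.027 in controls and −0.0085, 0.089 and 0.13 in OA-AP, with 1 of 5 above 0.1, and OA-AP pancreas replicate 1 was closest to adipose replicate 2. The labels name no shared animal, so the numbers were not taken as pairs. With the replicate block the counts were 31 lower in the pancreas, 0 in adipose tissue and 15 for the tissue difference, where Ndufa4l2 was at −0.028.

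Library totals turned the sign of these log2 values. In the pancreas they were Ndufa10 0.051, Ndufa7 0.25, Ndufa8 0.045, Ndufb5 0.087, Ndufb6 0.27, Ndufs3 0.021, Ndufs4 0.10 and Ndufv1 0.10. In adipose tissue they were Ndufa3 −0.098, Ndufa7 −0.11, Ndufa8 −0.048, Ndufb2 −0.036, Ndufs5 −0.12, Ndufs6 −0.11 and Ndufs8 −0.14. For the tissue difference they were Ndufa10 −0.26, Ndufa4l2 −0.81, Ndufa5 −0.0085, Ndufa6 −0.36, Ndufa7 −0.36, Ndufa8 −0.094, Ndufb10 −0.31, Ndufb11 −0.022, Ndufb5 −0.42, Ndufb6 −0.50, Ndufb8 −0.24, Ndufs3 −0.19, Ndufs4 −0.30, Ndufs7 −0.16, Ndufv1 −0.40 and Ndufv2 −0.24. Ndufa4l2 was at −0.0068 with TMM without acinar genes. In adipose tissue Ndufs5 was at −0.00052 and Ndufs8 at −0.018 without a filter, and at −0.0054 and −0.022 with at least 10 counts in every sample.

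With each library left out, adipose values crossed 0 for Ndufa10 (−0.20 to 0.029), Ndufa11 (−0.21 to 0.050), Ndufa12 (−0.21 to 0.056), Ndufa2 (−0.15 to 0.045), Ndufa3 (−0.035 to 0.11), Ndufa4 (−0.087 to 0.026), Ndufa7 (−0.0033 to 0.091), Ndufc2 (−0.10 to 0.023), Ndufs3 (−0.076 to 0.070), Ndufs4 (−0.12 to 0.037), Ndufs5 (−0.0045 to 0.093), Ndufs6 (−0.019 to 0.12) and Ndufs8 (−0.061 to 0.10), and the tissue difference for Ndufa4l2 (−0.39 to 0.29). The cause of these changes was not tested. The acinar share differed by 15.9 percentage points and that of the 10 most abundant genes by 12.1. Ndufa12 and Ndufb2 stayed below 50 counts in every pancreas library, and their values have the largest errors of the members there.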
